A study of Sus scrofa domesticus with 2 samples.

Results

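The genes described here were 4 secreted inflammatory factors, the chemokines CCL2, CCL5 and CXCL8 and the cytokine IL6, among 22804 features shared by both count matrices. They were chosen by name, with their levels in these cells already known, so their values are a description. The data were unique molecular identifier (UMI) counts, that is, counts of captured transcript molecules, from 3′ single-cell RNA sequencing of pig endothelial cells grown in culture. The cells were primary cultures of the aorta near the lung and of a perfused lung lobe, each released with collagenase and grown in the medium used for porcine aortic endothelial cells, DMEM with 10% fetal calf serum. The labels name no added agent and no altered allele for either culture. There was 1 library per culture, so no value has a replicate, no test between cultures was possible, and differences between the aorta and lung libraries cannot be told apart from differences between 2 cultures of any origin. Every interval given is a 95% interval for counting error only. Pig tissue for the single-cell work came from domestic hybrids of Landrace, Large White and Duroc aged 6 months. Sex and number of animals for these cultures were not given in the sources used here.

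Chemokines are small secreted proteins that direct the migration of leukocytes through G-protein-coupled receptors, and endothelial cells present them on their surface to passing blood cells. CCL2 recruits monocytes, CCL5 recruits T cells and monocytes, and CXCL8 recruits neutrophils. IL6 is a pleiotropic cytokine that acts through IL6R and the shared subunit IL6ST. Their genes are textbook targets of the NF-κB, AP-1 and C/EBP transcription factors, and CCL5 is also induced through interferon regulatory factors.

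Of 1185 barcodes in the aorta library 955 passed, and of 5946 in the lung library 5709 did, on a minimum of 200 genes and a ceiling of 30% for the summed share of 12 mitochondrial genes, and 5 barcodes occurred in both. The median depth was 52080 UMIs a cell in the aorta library and 9463 in the lung library, so shares of cells were also taken after thinning each cell at random to 5000 UMIs. Shallower cells were then left out, 41 aorta and 352 lung endothelial cells and 16 and 27 collagen-high cells. Endothelial cells (more UMIs of PECAM1, an endothelial adhesion molecule, than of the fibrillar collagens COL1A1 and COL1A2 together) made up 704 aorta cells (73.7%) and 5305 lung cells (92.9%). Collagen-high cells (more collagen than PECAM1 UMIs, with collagen at 1000 or more UMIs per 1000000 of the cell) numbered 157 (16.4%) and 349 (6.11%), and 94 and 55 cells were in neither class. PECAM1 led by only 1 or 2 UMIs in 33 aorta and 89 lung endothelial cells. All 13 measured endothelial markers had UMIs in the endothelial cells of both libraries, but VWF and KDR were near 0, at 0.195 and 0.390 UMIs per 1000000 UMIs (CPM) in the aorta and 0.399 and 1.78 in the lung. The leukocyte gene PTPRC had 0 UMIs in aorta endothelial cells, which allows up to 0.0836 CPM, and 18 in those of the lung. Of 20 immune markers, 8 and 15 had a UMI there, and together they reached 9.08 and 12.8 CPM.

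The 4 genes are listed in the count matrices, built on Sscrofa11.1, as ENSSSCG00000017705 (CCL5), ENSSSCG00000017723 (CCL2), ENSSSCG00000008953 (CXCL8) and ENSSSCG00000020970 (IL6). In the RefSeq annotation of that build, with 1 transcript each, CCL2 lies at chr12:40798109-40800013 (minus strand, 3 exons). CXCL8 lies at chr8:69932646-69935861 (plus strand, 4 exons) and IL6 at chr9:91506421-91510830 (plus strand, 5 exons). The 250 bases before the annotated starts of CCL2, CXCL8 and IL6 are shown. These genes are textbook targets of the NF-κB, AP-1 and C/EBP factors. Capitals mark matches, on either strand, to a κB site (GGNNTTTCC), an AP-1 site (TGANTCA), a C/EBP site (TTGCNNAA), an interferon-stimulated response element (GAAA, any 2 bases, then GAAA) or a TATA box (TATAAA). The windows, written 5′ to 3′ along the gene, were chr12:40800014-40800263 for CCL2, chr8:69932396-69932645 for CXCL8 and chr9:91506171-91506420 for IL6.
CCL2: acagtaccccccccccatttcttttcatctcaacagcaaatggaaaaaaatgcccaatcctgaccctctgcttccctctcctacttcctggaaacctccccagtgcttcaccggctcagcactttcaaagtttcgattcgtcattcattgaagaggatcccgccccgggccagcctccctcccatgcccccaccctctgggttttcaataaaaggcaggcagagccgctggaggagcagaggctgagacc
CXCL8: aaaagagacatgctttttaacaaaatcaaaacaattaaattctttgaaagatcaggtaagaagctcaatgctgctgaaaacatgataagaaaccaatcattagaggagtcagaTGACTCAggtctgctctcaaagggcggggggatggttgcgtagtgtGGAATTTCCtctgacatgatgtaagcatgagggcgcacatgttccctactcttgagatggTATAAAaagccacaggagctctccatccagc
IL6: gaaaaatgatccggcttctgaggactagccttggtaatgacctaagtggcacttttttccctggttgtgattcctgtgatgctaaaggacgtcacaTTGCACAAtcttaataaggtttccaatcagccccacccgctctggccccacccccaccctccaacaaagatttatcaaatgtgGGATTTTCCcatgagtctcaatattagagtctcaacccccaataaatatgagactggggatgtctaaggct

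A κB match was present before CXCL8 and IL6, ending 83 and 63 bases before the start. The same letters occurred in 5.27% of the 20651 protein-coding windows of this length. IL6 also had a C/EBP match (8.38% of windows), and CXCL8 had an AP-1 match (5.48%) and a TATA box (10.4%). None of the 3 windows held the interferon element (3.14%), and the CCL2 window held none of the 5 motifs in these exact letters. A match is a description of the sequence and was not tested for binding.

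CCL2 and CXCL8 were abundant in almost every endothelial cell of both cultures, whereas CCL5 and IL6 were scarce and uneven. Among all genes with a UMI, CCL2 ranked 25th of 15424 in aorta endothelial cells and 113th of 15644 in lung endothelial cells, and CXCL8 ranked 47th and 198th. CCL5 ranked 1453rd and 1797th, and IL6 ranked 1722nd and 8688th. The order of levels was thus CCL2, CXCL8, CCL5, IL6 in both libraries, with non-overlapping counting intervals at each step. Without the 1% of cells richest in each gene, CCL5 stood at 41.5 CPM and IL6 at 58.4 CPM in the aorta, so the order of these 2 turned, while in the lung they stood at 12.3 and 3.48 CPM. These are counts of molecules at the transcript 3′ end, which are not divided by transcript length.

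CCL2 stood at 4169 CPM in aorta endothelial cells (4147 to 4190) and 1450 CPM in lung endothelial cells (1439 to 1460). CXCL8 stood at 2978 CPM (2960 to 2996) and 650.2 CPM (643 to 657). Both were therefore higher in the aorta library. CCL5 stood at 108 CPM (105 to 111) in the aorta and 85.3 CPM (82.8 to 87.8) in the lung, the closest pair of the 4 genes. IL6 stood at 92.2 CPM (89.1 to 95.4) in the aorta and 5.54 CPM (4.92 to 6.22) in the lung, the widest gap.

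**Figure D1:**
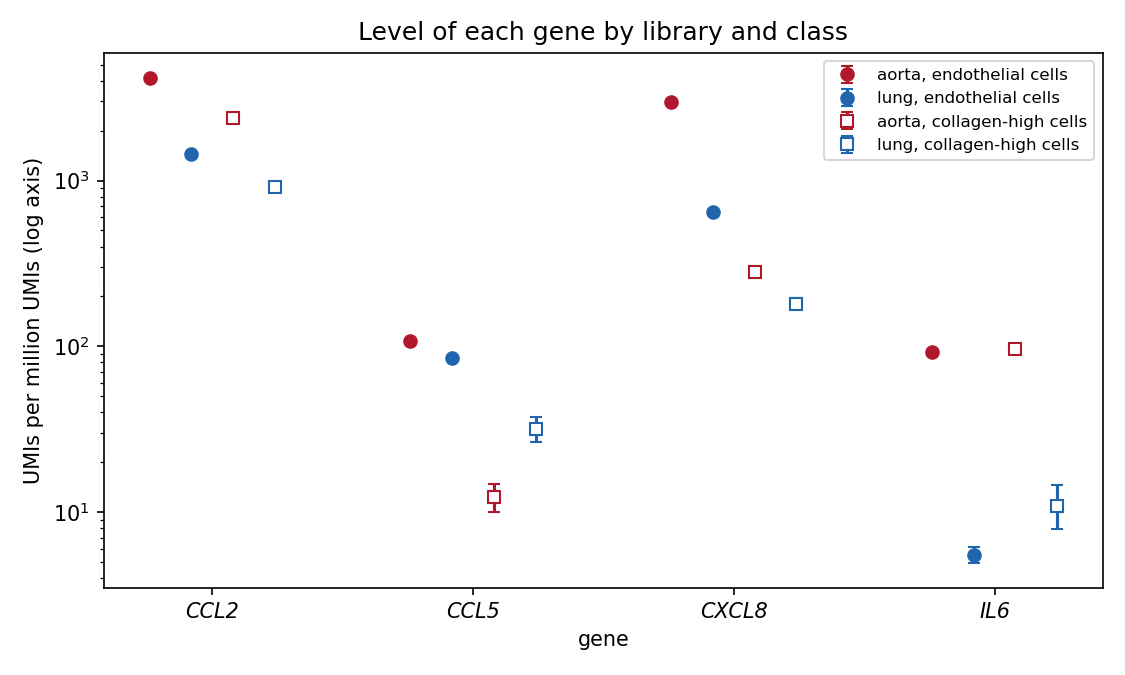
Level of each gene in UMIs per 1000000 UMIs (log axis) in endothelial cells (filled circles) and collagen-high cells (open squares) of the aorta (red) and lung (blue) library; bars are 95% Poisson intervals, often smaller than the symbol. CCL2 and CXCL8 lie highest, CCL5 and CXCL8 drop from endothelial to collagen-high cells, and IL6 does not.

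The aorta-to-lung ratio in endothelial cells was 2.88 for CCL2 (2.85 to 2.90), 4.58 for CXCL8 (4.52 to 4.64), 16.6 for IL6 (14.8 to 18.8) and 1.27 for CCL5 (1.21 to 1.32). So 3 of the 4 genes were at least 2-fold higher in the aorta library, against 3.51% of the 7809 genes that reached 10 CPM in either library, whose median ratio was 1.04. IL6 ranked 18th and CXCL8 56th by this ratio. With each cell thinned to 5000 UMIs the 3 ratios stayed above 2. The CCL5 ratio was set by few cells: it was 3.38 without the 1% of cells richest in CCL5 and 1.03 (0.983 to 1.08) without cells holding 2 or more immune genes. The immune-gene setting counted UMIs before thinning, at unlike depths, and left out 48 of 704 aorta but 23 of 5305 lung endothelial cells. The study's upper limit of 5000 detected genes, which leaves 246 aorta cells, put the CCL5 ratio at 3.80.

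The fraction of cells with a UMI separated the genes further. At 5000 UMIs a cell, CCL2 was found in 99.5% of 663 aorta and 95.4% of 4953 lung endothelial cells, and CXCL8 in 97.9% and 82.6%. CCL5 was found in 11.9% and 5.35%, and IL6 in 17.0% and 2.48%. All 4 shares were higher in the aorta library at this equal depth. Before thinning, at median depths of 53208.5 and 9434 UMIs, the shares were 99.9% and 97.6% for CCL2, 97.9% and 90.4% for CXCL8, 32.0% and 8.37% for CCL5, and 54.1% and 4.43% for IL6. Collagen-high cells, at median depths of 58922 and 10750 UMIs, had shares of 96.2% and 94.6% for CCL2, 86.0% and 59.9% for CXCL8, 12.7% and 6.59% for CCL5, and 68.2% and 11.2% for IL6. Free RNA was not measured, and PECAM1 itself stood at 25.7 and 184 CPM in these collagen-high cells, so a UMI there does not show that the cell expresses the gene. The median number of UMIs in a thinned cell was 19 in the aorta and 6 in the lung for CCL2, and 13 and 2 for CXCL8.

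**Figure D2:**
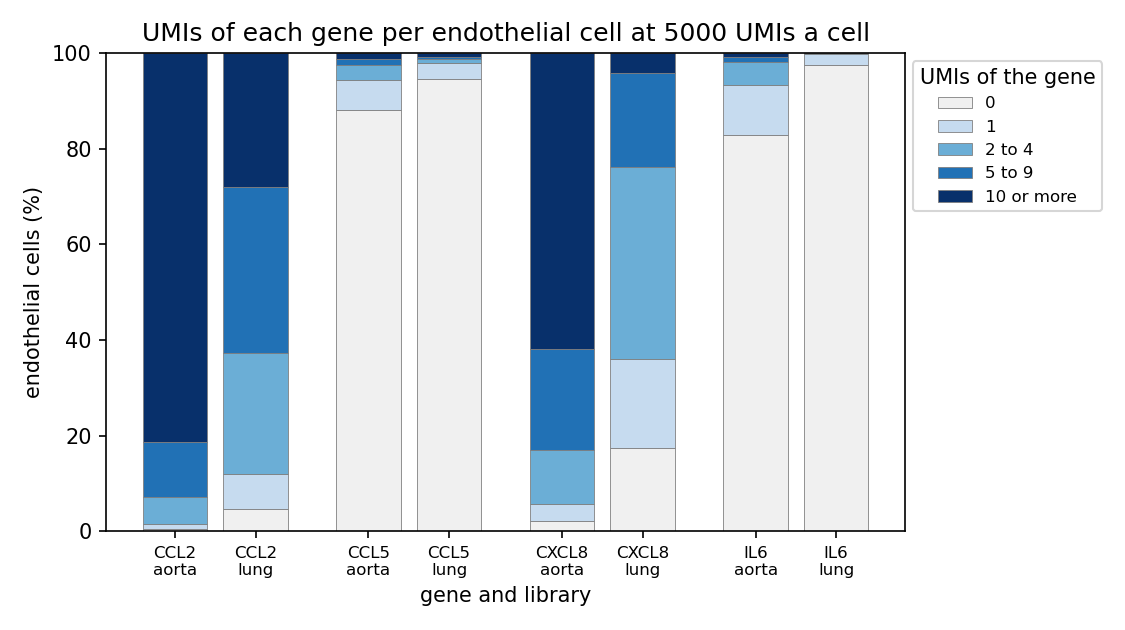
Percentage of endothelial cells with 0, 1, 2 to 4, 5 to 9, or 10 or more UMIs of each gene after thinning to 5000 UMIs a cell, by library. Cells with 10 or more CCL2 UMIs make up 81.3% of the aorta and 27.9% of the lung cells, whereas most cells have no CCL5 or IL6 UMI.

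CCL5 was concentrated in a small set of cells. Without thinning, the richest 10% of endothelial cells held 94.1% of CCL5 UMIs in the aorta library and 100% in the lung library. The lung value was fixed by detection, since only 8.37% of those cells had a CCL5 UMI. The richest 1% alone held 62.1% and 85.8%. IL6 followed in the aorta, with 78.3% in the richest 10%, while no lung endothelial cell held more than 6 IL6 UMIs. CCL2 and CXCL8 were spread more evenly, with 25.8% and 30.7% of their UMIs in the richest 10% of aorta cells and 29.2% and 34.2% in the lung. In thinned cells the variance of CCL5 was 19.3 times its mean in the aorta and 42.5 times in the lung, against 7.17 and 4.38 times for CCL2. For CXCL8 it was 8.88 and 2.92 times, and for IL6 5.36 and 1.11 times. This measure depends on the mean, which ran from 0.0264 UMIs a cell (IL6, lung) to 20.0 (CCL2, aorta). It therefore does not rank these genes by evenness.

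**Figure D3:**
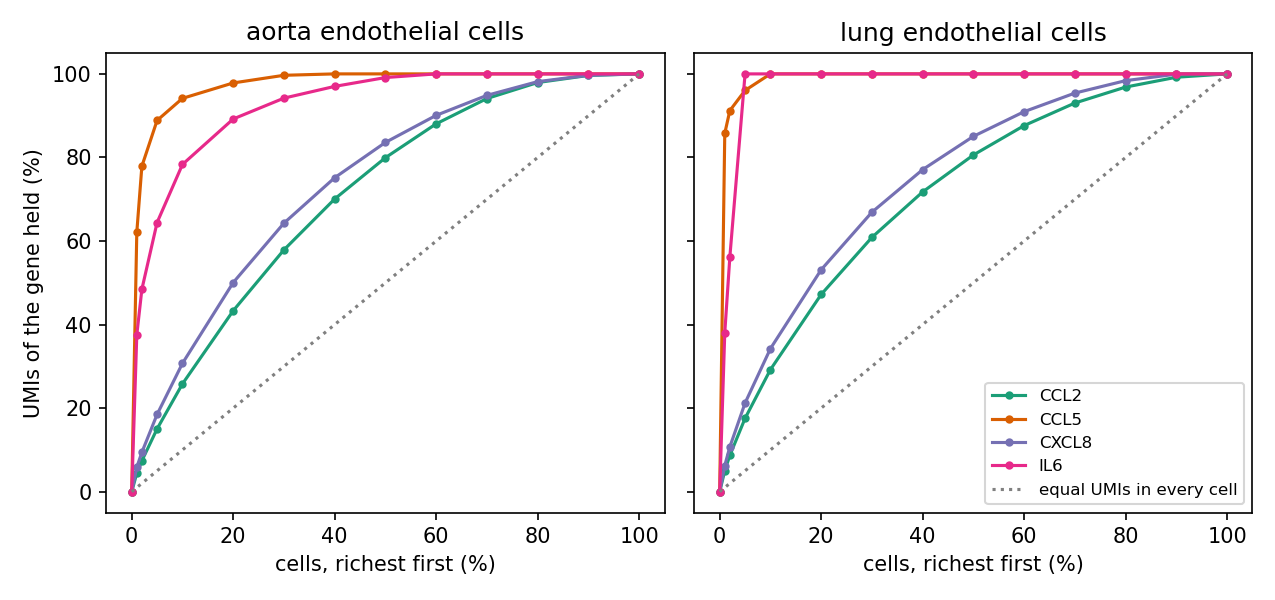
Percentage of the UMIs of each gene (vertical) held by the given percentage of endothelial cells, taken from the richest down (horizontal), without thinning; the dotted line is equal UMIs in every cell. At 1% of cells the CCL5 curve is the highest of the 4 in each library, at 62.1% (aorta) and 85.8% (lung), and CCL2 lies closest to the dotted line in both libraries.

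The endothelial cells richest in CCL5 also carried CDH5, an endothelial cadherin that the class rule did not use, in 9 of 10 cases. The 5 richest aorta cells held 472, 409, 389, 369 and 215 CCL5 UMIs, with 7 to 18 CDH5 UMIs. The 5 richest lung cells held 303, 262, 256, 192 and 176 CCL5 UMIs, with 0 to 4 CDH5 UMIs. PTPRC, the only immune marker looked at in these cells, was at 0 in all 10. It had 0 UMIs in all aorta endothelial cells and 18 in all those of the lung, so this does not set the 10 cells apart. Leaving out cells with 2 or more immune genes moved CCL5 from 108 to 86.7 CPM in the aorta. In the lung it moved from 85.3 to 84.1 CPM. Of these lung cells, the one with 262 CCL5 UMIs had 0 UMIs of CXCL8, IL6 and CXCL10 and 7 of CCL2, so very high CCL5 did not always come with the other members.

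CCL5 and CXCL8 were lower in collagen-high than in endothelial cells of both libraries, CCL2 was moderately lower, and IL6 was at a like level in the aorta and higher in the lung. Among collagen-high cells, those of the aorta library had CCL2 at 2376 CPM, CXCL8 at 282 CPM, CCL5 at 12.3 CPM and IL6 at 95.8 CPM. In the lung library they stood at 916, 181, 31.7 and 10.9 CPM. CXCL8 was 10.6-fold higher in endothelial cells in the aorta (10.2 to 10.99) and 3.59-fold in the lung (3.34 to 3.87). CCL5 was 8.80-fold higher (7.28 to 10.7) and 2.69-fold higher (2.26 to 3.24). For CCL2 the endothelial excess was 1.75-fold (1.73 to 1.78) and 1.58-fold (1.53 to 1.64). Thus 2 of the 4 genes were at least 2-fold lower in collagen-high cells of each library, where 13.2% of 8123 aorta genes and 9.71% of 7970 lung genes were, and these percentages include the many genes that separate the classes. In the aorta, collagen-high over endothelial CXCL8 moved from 0.0947 to 0.0306 under 5000 detected genes, and CCL5 from 0.114 to 0.0484 after thinning.

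IL6 in collagen-high cells was 1.04 times the endothelial level in the aorta (0.963 to 1.12) and 1.96 times in the lung (1.40 to 2.70), under the 2-fold limit that 7.88% and 6.88% of genes passed. The aorta value was 0.571 (0.238 to 1.18) under 5000 detected genes and 0.891 (0.645 to 1.21) after thinning. After thinning, an IL6 UMI was found in 22.7% of collagen-high cells in the aorta and 4.97% in the lung, against 17.0% and 2.48% of endothelial cells. Of the related cytokine LIF, which signals through the same IL6ST subunit, collagen-high cells had 24.3 CPM in the aorta and 4.95 CPM in the lung, and endothelial cells had 0.279 and 0.0190 CPM. The CCL5 contrast rested on few cells: 1 cell held 46.4% of the CCL5 UMIs of the collagen-high class in the aorta, and another 65.6% in the lung. Without the 1 richest cell of each class, collagen-high over endothelial CCL5 was 0.0697 (aorta) and 0.138 (lung). Collagen-high over endothelial CCL5 in the lung moved from 0.371 to 0.123 without the 5% of cells with the highest doublet scores and to 1.02 (0.912 to 1.13) with no minimum collagen level. Also without the 1 richest cell of each class, that last value was 0.416 (0.348 to 0.494).

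Between the 2 cultures, collagen-high cells differed in the same direction as endothelial cells for CCL2 (2.59-fold higher in the aorta, 2.51 to 2.69), CXCL8 (1.56-fold, 1.43 to 1.69) and IL6 (8.80-fold, 6.497 to 12.2). At least a 2-fold excess in the aorta was seen for 2.34% of 7694 genes in these cells, and IL6 ranked 7th. CCL5 went the other way, at 0.388 of the lung level (0.298 to 0.504), and 2.79% of genes were lower by 2-fold or more. Without the 1 richest cell of each class the CCL5 ratio was 0.605 (0.403 to 0.916), and without the 5% highest doublet scores 0.924 (0.626 to 1.39). Under 5000 detected genes CXCL8 turned to 0.584 (0.368 to 0.884) and IL6 stood at 3.30 (1.34 to 7.13). The ratio of CCL2 to CXCL8 UMIs in the aorta was 1.40 for endothelial and 8.43 for collagen-high cells, and in the lung 2.23 and 5.06. The share of thinned collagen-high cells with a CXCL8 UMI was 46.8% (aorta) and 41.3% (lung), and that with a CCL5 UMI was 2.13% and 3.42%.

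At 5000 UMIs a cell, most endothelial cells had UMIs of CCL2 and CXCL8 only, 478 of 663 aorta cells (72.1%) and 3636 of 4953 lung cells (73.4%). This pattern depends on depth. Before thinning, CCL2 and IL6 were found together in 54.1% of aorta and 4.37% of lung endothelial cells, so in the aorta it was not that of most cells. The counts that follow are also at 5000 UMIs a cell. All 4 genes were found in 18 aorta cells (2.71%) and 6 lung cells (0.121%). No gene of the 4 was found in 81 lung cells (1.64%), while every aorta cell had at least 1. The commonest other patterns were CCL2, CXCL8 and IL6 in the aorta (92 cells, 13.9%) and CCL2 alone in the lung (717 cells, 14.5%).

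CCL2 and CXCL8 were weakly correlated from cell to cell. The Pearson correlation of log(1 + UMIs) was 0.275 across 663 aorta cells and 0.337 across 4953 lung cells, which share a library and a fixed depth. In the lung, CXCL8 was found in 83.6% of cells with a CCL2 UMI and 61.9% of those without, and its mean was 2.31-fold higher (2.06 to 2.59). In the aorta only 3 thinned cells lacked CCL2 and 14 lacked CXCL8, too few for such a comparison. In aorta collagen-high cells the mean of CCL2 was 1.61-fold higher (1.45 to 1.78) in the 32 cells with an IL6 UMI than in the others.

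Between cells with and without CCL5, the abundant members differed by at most 1.33-fold. In the aorta, CXCL8 was found in 97.5% of CCL5-positive and 97.9% of CCL5-negative cells and its mean differed 1.05-fold (0.987 to 1.11). In the lung CXCL8 was 1.14-fold higher (1.07 to 1.22). The mean of CCL2 differed 1.01-fold in the aorta (0.958 to 1.06) and 1.33-fold in the lung (1.28 to 1.39). IL6 was found in 24.1% of CCL5-positive and 16.1% of CCL5-negative aorta cells, with a mean 1.95-fold higher (1.42 to 2.63). In the lung these IL6 shares were 2.64% and 2.47%. Taken the other way, the mean of CCL5 was 3.44-fold higher in IL6-positive than in IL6-negative aorta cells (2.79 to 4.22) and 4.85-fold higher in the lung (4.19 to 5.60), where the 212 CCL5 UMIs of IL6-positive cells came from 7 cells.

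**Figure D4:**
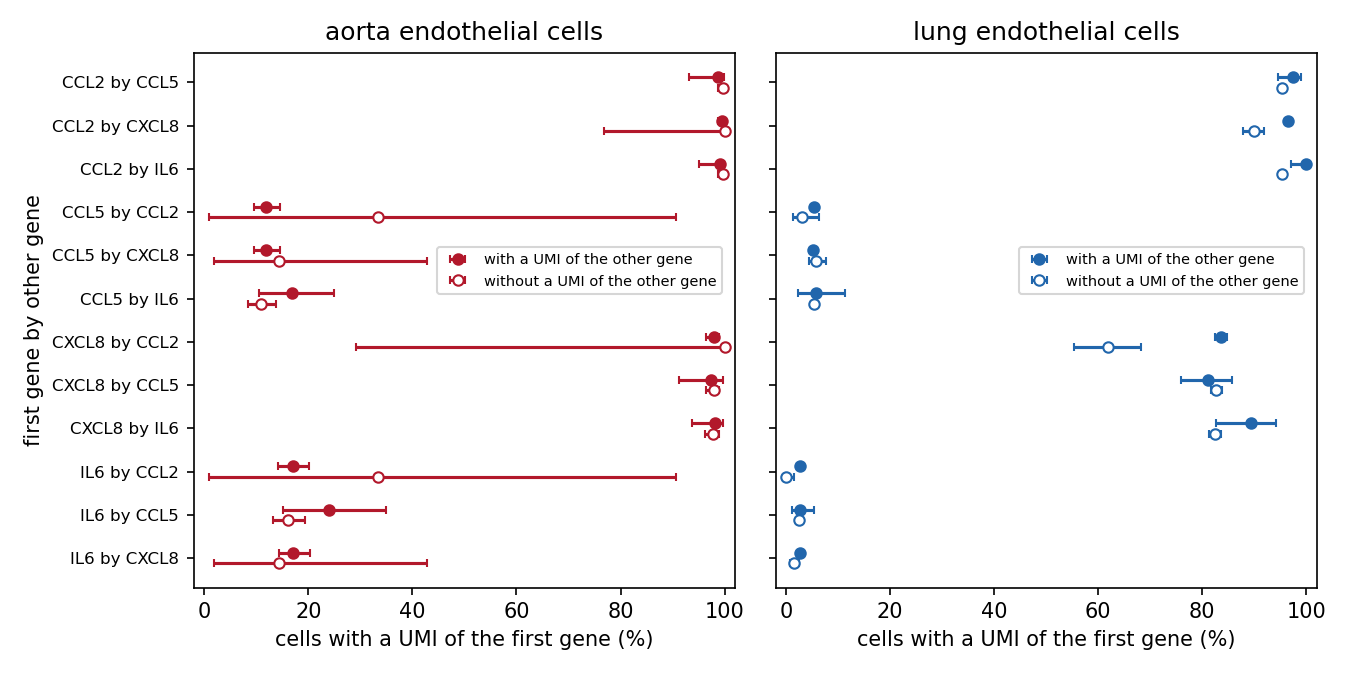
Percentage of endothelial cells with a UMI of the first gene (horizontal) among cells with (filled) and without (open) a UMI of the other gene, at 5000 UMIs a cell, for all ordered pairs of the 4 genes; bars are 95% Clopper-Pearson intervals. CXCL8 by CCL2 in the lung differs, at 83.6% against 61.9%, and the widest bars in the aorta belong to the 3 cells without CCL2 and the 14 without CXCL8.

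Much of the interferon list, genes induced when interferon receptors or viral RNA sensors signal, stood higher in CCL5-positive endothelial cells. The list was a part of what differed: 597 of 8299 aorta and 81 of 7686 lung genes were at least 2-fold higher, and 348 and 35 were lower. Of 27 list genes at 10 CPM or more, 22 were at least 2-fold higher in the 79 CCL5-positive than in the 584 CCL5-negative aorta cells, and 0 were 2-fold lower (4.19% of all genes were). In the lung, 16 of 27 were higher in 265 positive than in 4688 negative cells, and again 0 were lower (0.455%). Over all genes, 7.19% (aorta) and 1.05% (lung) were 2-fold higher, and the median ratio of the list was 3.28 and 2.33 against 0.995 and 0.997 for all genes. The list as a whole stood 4.01-fold (3.85 to 4.17) and 3.63-fold (3.54 to 3.73) higher. It was drawn up with the earlier results of these data known, so these counts describe the cells and are not independent support.

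CXCL10, a chemokine for T cells, was 32.1-fold higher in aorta cells with CCL5 (582 against 18.2 CPM, interval 23.7 to 44.1) and 15.98-fold higher in the lung (190.2 against 11.9 CPM, 13.4 to 19.0). CXCL10 UMIs were found in 15 of 79 positive and 10 of 584 negative aorta cells, and the ratio was 23.3 without the cell richest in it. RSAD2, which encodes the antiviral enzyme viperin, was 9.41-fold higher in the aorta (7.58 to 11.7) and 10.6-fold in the lung (9.08 to 12.3). IFIT2, an RNA-binding antiviral protein, was 20.5-fold (13.5 to 32.0) and 10.7-fold (8.46 to 13.4) higher. The most abundant list gene, ISG15, a ubiquitin-like modifier, was 4.55-fold (4.22 to 4.91) and 5.28-fold (5.07 to 5.50) higher and was found in 81.0% of CCL5-positive against 58.2% of CCL5-negative aorta cells. DDX58, the RNA sensor also called RIG-I, was 4.61-fold (3.65 to 5.79) and 4.78-fold (4.11 to 5.53) higher.

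**Figure D5:**
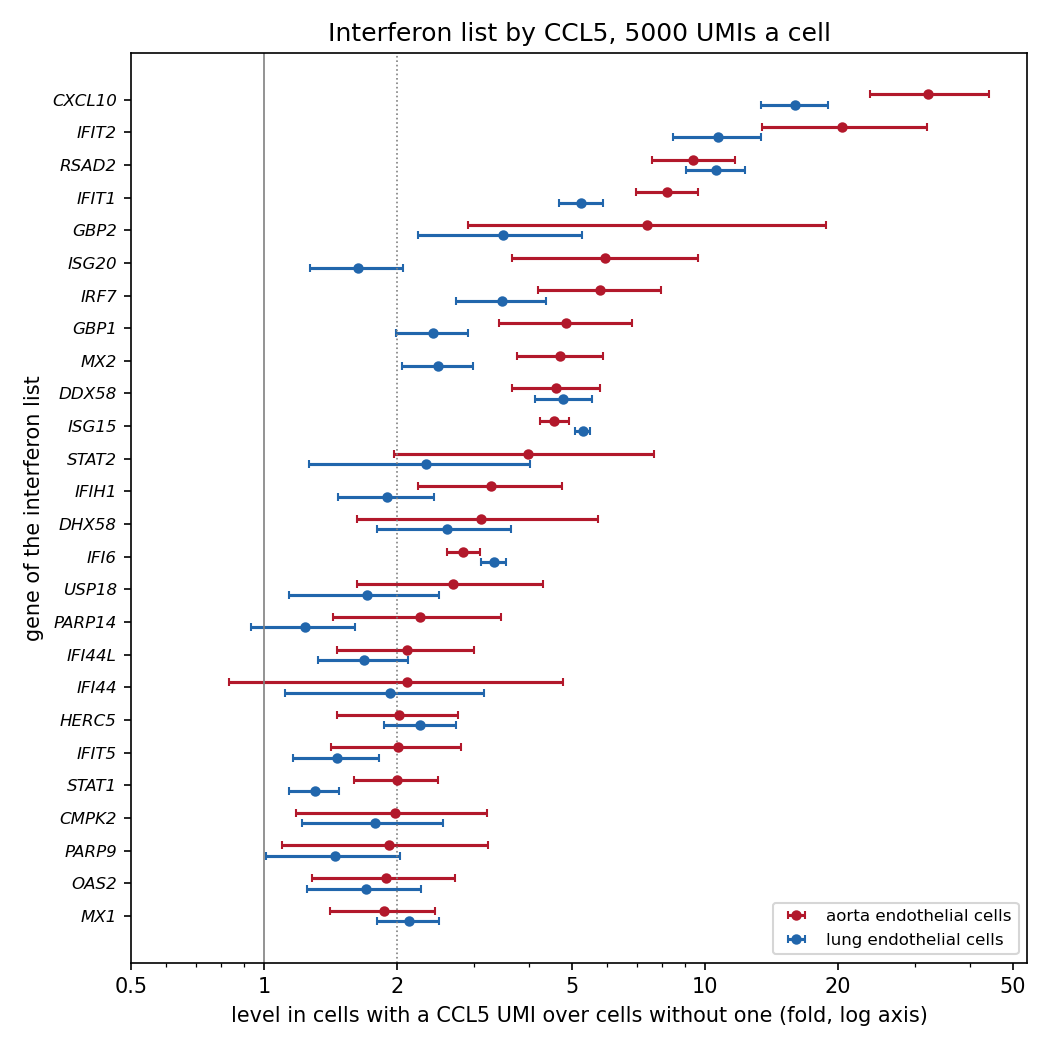
Ratio of the level in endothelial cells with a CCL5 UMI to that in cells without one (log axis; solid line 1, dotted line 2), at 5000 UMIs a cell, for the 26 interferon list genes at 10 CPM or more in either group of both libraries and with more than 3 UMIs in negative cells; bars are 95% counting intervals. Of the genes plotted, CXCL10 lies highest in both, at 32.1 in the aorta and 15.98 in the lung, and the lowest point, PARP14 in the lung, lies at 1.24. CXCL11, not plotted, had higher ratios, 66.5 in the aorta (9 against 1 UMIs) and at least 94.3 in the lung (16 against 0).

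The gene of interferon beta itself, IFNB1, was seen in few cells, and all of them held CCL5. Without thinning, IFNB1 had 188 UMIs in 5 aorta endothelial cells, 137 of them in 1 cell, and 14 UMIs in 4 lung endothelial cells. The 4 aorta cells with the most CCL5 were all among the IFNB1-positive ones. Of the lung cells with IFNB1, the highest placed by CCL5 was 9th. All 5 aorta cells and 3 of the 4 lung cells also held CXCL10. These cells were singled out after their values were seen.

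Of the genes most like CCL5 across endothelial cells, those named here were on the same list except TNFSF10, a death ligand on the list of other cytokines. Likeness was the Pearson correlation of log(1 + thinned UMIs) across cells of 1 library, so shared library and depth enter all values, and genes in at least 5% of cells were compared. In the aorta IFIT2 (0.625), IRF7 (0.493), IFIT1 (0.489), RSAD2 (0.489) and TNFSF10 (0.475) were closest, and 74 of 7028 genes reached 0.2. In the lung ISG15 (0.312), RSAD2 (0.298), IFIT1 (0.268), DDX58 (0.251) and IFI6 (0.241) were closest, and 6 of 6855 genes reached 0.2. CXCL10, in under 5% of cells, was below the detection limit of this ranking and correlated with CCL5 at 0.602 in the aorta and 0.316 in the lung.

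Outside the interferon list, the genes SLPI, CFD and CRYAB, a secreted protease inhibitor, complement factor D and a small heat shock protein, were all at least 2-fold higher in CCL5-positive cells of both libraries. These 3 genes were listed together with earlier results of these data known, so their excess is a description and not independent support. Of all genes, 7.19% (aorta) and 1.05% (lung) were at least 2-fold higher, and 4.19% and 0.455% were lower. SLPI was 3.45-fold higher in the aorta (3.14 to 3.79) and 2.38-fold in the lung (2.11 to 2.68), CFD 6.43-fold (5.10 to 8.11) and 2.02-fold (1.69 to 2.40), and CRYAB 2.43-fold (2.15 to 2.75) and 2.55-fold (2.16 to 3.00). Without its richest cell CRYAB was 1.90-fold higher in the aorta, under the limit. The stress cytokine GDF15 was 5.44-fold (4.45 to 6.65) and 3.26-fold (2.71 to 3.90) higher. LMNB1, a nuclear lamina gene, was lower, at 0.499 (0.244 to 0.916) and 0.393 (0.256 to 0.579) of the level in negative cells. GDF15 and LMNB1 are on the senescence and p53 list, of which 3 of 6 were higher and 1 lower in the aorta. In the lung, 1 of 5 was higher and 1 lower, and the list medians were 1.55 and 1.15. Of 14 S and G2M phase genes, 5 were at least 2-fold lower in CCL5-positive aorta cells and 0 in the lung (4.19% and 0.455% of all genes). The medians of that list were 0.654 and 0.776. Of the NF-κB list, 3 of 17 were higher in the aorta and 0 of 15 in the lung (7.19% and 1.05% of all genes).

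IL6-positive cells showed a smaller excess of the interferon list than CCL5-positive cells, but not of the chemokine ligands. The interferon list median was 1.68 (aorta) and 1.56 (lung) by IL6, against 3.28 and 2.33 by CCL5. For the chemokine ligands the medians were 3.54 and 2.14 by IL6, against 1.96 and 1.83 by CCL5. In the aorta, 5 of 26 interferon list genes and 5 of 7 chemokine ligands were at least 2-fold higher in the 113 IL6-positive cells (2.97% of all genes), and 0 were lower (2.78%). In the lung, 8 of 25 and 3 of 6 were higher in 123 positive cells (1.19%), and 0 were lower (2.03%). CXCL10 was 4.14-fold higher in the aorta (3.25 to 5.26), but 2.09-fold (1.54 to 2.81) without the cell richest in it, and 8.45-fold higher in the lung (6.69 to 10.6). CCL20, a chemokine for dendritic cells and lymphocytes that express CCR6, was 4.23-fold (2.20 to 8.06) and 5.66-fold (3.19 to 9.45) higher, from 20 and 17 UMIs, and in the lung 3.02-fold (1.35 to 5.93) without its richest cell. PTGS2, the inducible cyclooxygenase, was 2.32-fold higher in the aorta (1.997 to 2.69), and in the lung its ratio was 1.30 (0.920 to 1.79). The growth factor CSF2 lost its 7.16-fold excess in the aorta without its richest cell (1.16, 0.283 to 3.54).

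In the aorta PTGS2 (0.240), the protease ADAMTS4 (0.230) and the mitochondrial enzyme SOD2 (0.209) were the genes most like IL6, and in the lung none of 6855 genes reached 0.2. For CXCL8, the neutrophil chemokine CXCL2 was closest in both libraries, at 0.485 in the aorta and 0.389 in the lung. It was followed in the aorta by ESM1 (0.384), a secreted endothelial proteoglycan, THBS1 (0.369), CTGF (0.292) and TNFAIP6 (0.242), and in the lung by ANKRD1 (0.286) and IER3 (0.225). For CCL2, the leukocyte adhesion molecule VCAM1 (0.327) came first in the aorta, before FAM213A (0.294), CXCL2 (0.288), AMCF-II (0.254) and IL1A (0.225). In the lung CXCL2 (0.298) and VCAM1 (0.295) came before ANKRD1 (0.230). CXCL2 was thus on the short lists of CCL2 and CXCL8 in both libraries and VCAM1 on those of CCL2.

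In lung endothelial cells the 860 cells without CXCL8 differed little from the 4093 with it. Only 3 of 7575 genes (0.0396%) were at least 2-fold higher with CXCL8, which were AMCF-II, GDF6 and CCL11, named after their values were seen, and 1 gene was lower (0.0132%). AMCF-II, a pig CXC chemokine, was 2.55-fold higher (2.31 to 2.81) and CCL11, the eosinophil chemokine, 2.06-fold (1.52 to 2.87, and 1.98-fold without its richest cell), while CXCL2 was 1.79-fold higher (1.72 to 1.87). Between the 4727 lung cells with CCL2 and the 226 without, 6 of 23 interferon list genes were at least 2-fold higher with CCL2 (0.566% of all genes) and 0 were lower (0.85%). IFIT1 was 3.08-fold higher (2.10 to 4.73) and VCAM1 1.50-fold (1.44 to 1.56). CCL5 was 8.33-fold higher with CCL2 (4.64 to 16.7), with 11 CCL5 UMIs in the cells without, and CXCL10 had 530 UMIs in cells with CCL2 and 1 in those without. With CXCL8, CCL5 was 0.770 of its level without (0.690 to 0.861). That ratio rests on few cells, so no inverse relation is read from it. The cells without CXCL8 held 413 CCL5 UMIs and include the lung cell with 262 before thinning. Without the 1 cell richest in CCL5, which held CXCL8, the ratio was 0.706 (0.632 to 0.790).

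Of 25 other chemokine ligands measured, 4 reached 20 CPM in endothelial cells of each library, CXCL2, AMCF-II, CXCL10 and CCL11. CXCL2 stood at 2938 CPM in the aorta and 1047 in the lung, a ratio of 2.80 (2.78 to 2.83), and AMCF-II at 1225 and 240 CPM, a ratio of 5.11 (5.01 to 5.21). CXCL10 was at 80.3 and 22.7 CPM and CCL11 at 47.4 and 21.1 CPM. All 4 were more than 2-fold higher in the aorta library, as were 3.51% of all genes. Among ligands under 10 CPM in both libraries, named after their values were seen, CXCL12 was 19.8-fold, CCL1 4.98-fold and CXCL14 3.70-fold higher in the lung. Others went the other way: CCL3L1 was 17.6-fold (8.59 to 42.0) and CXCL11 6.80-fold (4.56 to 10.5) higher in the aorta. Of 19 chemokine receptors measured, only the scavenger receptor ACKR3 reached 20 CPM, at 58.1 and 30.0 CPM. IL6ST, the signalling subunit for IL6, stood at 805 CPM in the aorta and 539 in the lung.

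Of 18 NF-κB factors and feedback genes, 14 in the aorta and 13 in the lung reached 20 CPM. The highest were NFKBIZ at 352 and 192 CPM, NFKBIA at 294 and 285, BIRC3 at 230.2 and 228, and TNIP1 at 195 and 330.4. None of these 4 passed a 2-fold difference, with ratios from 0.591 for TNIP1 to 1.83 for NFKBIZ. Of the endothelial activation list, VCAM1 stood at 3816 and 3207 CPM, SELP at 445 and 127, and PTGS2 at 240.2 and 51.0. SOD2 stood at 460 and 527 CPM and ICAM1 at 154 and 179, with aorta-to-lung ratios of 0.873 and 0.856. Of the interferon list, 22 of 30 genes reached 20 CPM in the aorta and 18 in the lung, led by ISG15 at 875 and 538 CPM and IFI6 at 793 and 293 CPM.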

How the data were processed

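Single-cell 3′ libraries of the 2 cultures had been processed with Cell Ranger (3.0.2, per the submitters' processing notes) against Sscrofa11.1, and the authors deposited UMI count matrices without normalization. Gene names came from the matrices, and 1051 of 7821 features listed by identifier alone were named from a gene table. The study's methods also state an upper limit of 5000 detected genes, which would leave 246 aorta and 5683 lung cells. It was used only as an alternative. Levels are UMIs summed over cells per 1000000 UMIs (CPM), with Poisson, Clopper-Pearson (shares) and exact conditional (ratios) intervals, and a count of 0 was read as up to 3 counts. Molecules of 1 library are not replicates, and no test was made. A gene was counted at a 2-fold difference and 10 CPM or more in 1 group. Cells with and without a gene were compared where each side held 50 cells or more, a limit set after the data were seen. List genes were named where they reached 20 CPM in a class of a library, at most the 6 highest in a group of sentences. CCL20, CSF2, IFNB1 and GDF6 fell outside this rule and were named after their values were seen. For likeness, the 5 closest genes at 0.2 or more were named. The genes, lists and rules were chosen with earlier results of these data known. Scrublet called 8 aorta cells (0.838%) and 3 lung cells (0.0525%), too few in the lung to have worked, and no cell was removed as a doublet. Settings tried in turn were the gene limit, thinning, leaving out cells low in mitochondrial UMIs or with immune genes, means over cells, a wider PECAM1 margin, doublet scores and no collagen minimum. Calculations used Python 3.11.15, numpy 2.4.6, scipy 1.17.1 and scanpy 1.11.5, and were tested on simulated counts. The sequence before CCL5 is not reported here.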

Additional observations from a re-analysis of the deposited data

Results flagged for a closer look

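Cells that belonged to neither class, which the comparisons as first reported did not use, held more than the 3 UMIs that a count of 0 allows of all 4 genes in the aorta and of CCL2, CCL5 and CXCL8 in the lung. IL6 had 1 UMI in those of the lung. In the 94 aorta cells CCL5 stood at 44.1 CPM, CCL2 at 1070 CPM (1069.6), CXCL8 at 207 CPM and IL6 at 19.3 CPM. In the 55 lung cells CCL5 stood at 1100.1 CPM, CCL2 at 960.3 CPM and CXCL8 at 433 CPM. Of the 244 CCL5 UMIs in those lung cells, 225 came from 1 cell. In the same lung cells 12 of 55 held UMIs of 2 or more immune genes and the immune list summed to 3580 CPM. In the aorta, 77 of the 94 cells had under 1% mitochondrial UMIs. With no minimum collagen level, 28 of the aorta and 7 of the lung cells join the collagen-high class, and collagen-high over endothelial CCL5 in the lung is 1.02, or 0.416 (0.348 to 0.494) also without the 1 richest cell of each class.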

How the results depend on the processing

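No paired analysis was possible because each group is 1 library. Under the 7 other settings that bear on them, no aorta-to-lung ratio in endothelial cells changed direction. With fewer than 5000 detected genes the ratios were 3.80 (CCL5), 2.41 (CCL2), 5.18 (CXCL8) and 11.3 (IL6). At 5000 UMIs a cell they were 1.51 (CCL5), 2.76 (CCL2) and 4.87 (CXCL8), as means over cells 1.56, 2.78 and 4.69, and without the 5% highest Scrublet scores 1.21, 2.90 and 4.66. CCL5 stood at 1.03 without cells holding 2 or more immune genes and, in an alternative added after the data were seen, at 3.38 without the 1% of cells richest in it. The immune-gene setting counted UMIs before thinning. It left out 48 aorta and 23 lung endothelial cells, and 10 and 0 collagen-high cells.

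For collagen-high over endothelial cells in the aorta, the 5000-gene limit gave 0.597 (CCL2), 0.0306 (CXCL8) and 0.571 (IL6), and no CCL5 value, since CCL5 had 3 or fewer UMIs there. Thinning gave 0.0484 (CCL5), 0.602 (CCL2), 0.0859 (CXCL8) and 0.891 (IL6), and means over cells 0.0847 (CXCL8) and 0.943 (IL6). CXCL8 was 0.0842 without the highest Scrublet scores and CCL5 0.0690 without immune genes. In the lung CCL5 was 0.255 thinned, 0.255 as a mean over cells, 0.123 without the highest Scrublet scores and 1.02 with no minimum collagen level, where it changed direction. IL6 in the aorta, at 1.04 as reported, also fell under 1 in the 3 settings given, with intervals that include 1 where they were computed. The cause of these moves was not tested. CCL2 was 0.598 and CXCL8 0.243 as means over cells, and CXCL8 0.211 without the highest Scrublet scores. Without the 1 richest cell of each class, added after the data were seen, collagen-high over endothelial CCL5 was 0.0697 (aorta) and 0.138 (lung), and in the aorta CCL2 was 0.561 and CXCL8 0.0864. With no minimum collagen level as well, the aorta gave 0.0697 (CCL5), 0.555 (CCL2) and 0.0860 (CXCL8).

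Aorta over lung in collagen-high cells, whose settings were also added after the data were seen, gave CCL5 values of 0.285 thinned, 0.189 without cells holding immune genes, 0.585 as a mean over cells, 0.924 without the highest Scrublet scores, 0.140 with no minimum collagen level and 0.605 without the 1 richest cell. CXCL8 was 1.86 without the highest Scrublet scores. Under 5000 detected genes CCL2 was 2.27 and IL6 3.30, CXCL8 reversed to 0.584, and CCL5 had 3 or fewer UMIs in a library and gave no value. Shares of cells with 2 genes moved with depth for 11 of 12 pairs, both unthinned and at 2000 UMIs.

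Depth limits CCL5 and IL6 most: at 5000 UMIs a cell their median is 0, and a cell without a UMI is not shown to lack the transcript.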
